A study of Mus musculus with 12 samples.

Results

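Genes for potassium channels were examined in neutrophils and monocyte-derived macrophages that had been exposed to calcitonin gene-related peptide (CGRP), a neuropeptide released by sensory neurons. The set holds 8 genes, selected by symbol from the 52636 genes listed for each cell type: *Kcnj2*, *Kcne3*, *Kcnn4*, *Kcnk13*, *Kcnk6*, *Kcnab2*, *Kcna3* and *Kcnq1*. They were selected with the CGRP responses of these same libraries already known, so their responses to CGRP are given as a description and not as independent evidence. Neutrophils and monocytes were isolated by enrichment kits from bone marrow of C57BL/6J mice aged 8 to 12 weeks, and all groups share this strain. Neutrophils were used fresh, whereas monocytes were first kept for 3 days with 10 ng/ml M-CSF (macrophage colony-stimulating factor) and are called macrophages here. The 4 groups were neutrophils after saline (PBS), neutrophils after 1 nM CGRP, macrophages after saline and macrophages after 1 nM CGRP, each treated for 4 h and each with 3 libraries. Unique transcript counts per library summed to between 2002559 and 3631989, and 3 counts, taken as the floor, were worth between 0.826 and 1.498 counts per 1e6 counts of the library (CPM). Floors and count intervals cover counting error only.

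Potassium channels let potassium leave the cell along its gradient and thereby set the membrane potential, which governs calcium entry. The loss of potassium itself bears on cell volume and on the activation of potassium-sensitive inflammasomes in leukocytes. *Kcnj2* encodes the inward rectifier Kir2.1, *Kcnn4* the calcium-activated channel KCa3.1, and *Kcnk13* and *Kcnk6* the two-pore-domain leak channels THIK-1 and TWIK-2. *Kcna3* and *Kcnq1* encode the voltage-gated channels Kv1.3 and Kv7.1, *Kcne3* a small single-pass subunit that modifies voltage-gated channels such as Kv7.1, and *Kcnab2* a cytosolic beta subunit of Kv1 channels. The counts come from the 3′ ends of transcripts and carry no length scale on which the genes could be ranked, so each gene is compared with itself across groups.

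The labelled cell types were checked first. In the 6 macrophage libraries, 10 macrophage markers including *Csf1r* and *Adgre1* summed to between 25286 and 28998 CPM, with the most counts from the cathepsin gene *Ctsb*, and 11 neutrophil markers summed to between 332 and 436 CPM. In the 6 neutrophil libraries the neutrophil markers, led by *S100a8*, summed to between 163514 and 211875 CPM and the macrophage markers to between 1272 and 1454 CPM. Neutrophil libraries also held erythroid transcripts, led by *Hbb-bs*, at 5918 to 6834 CPM and eosinophil, basophil and mast cell transcripts, led by *Prss34*, at 1531 to 1767 CPM.

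In macrophages, CGRP was accompanied by lower transcript counts of 4 channel genes, *Kcnj2*, *Kcne3*, *Kcnn4* and *Kcnk13*, while *Kcnk6* and *Kcnab2* did not pass the test and *Kcna3* and *Kcnq1* were at or near 0. *Kcnj2* was the gene with the lowest log2 fold change of the 9393 tested in this cell type by limma-voom. Counted from the lowest, its rank was 4 with edgeR, 3 with DESeq2 and 2 with voomWithQualityWeights. Of the 8 genes, 6 passed the filter on low counts in macrophages, of which 4 fell and 0 rose at an adjusted p under 0.05. Of all 9393 genes tested, 7.43% passed that threshold, 3.97% being lower after CGRP and 3.46% higher. The balance depended on the setting, with 405 genes lower and 245 higher without TMM, and 691 lower and 715 higher with voomWithQualityWeights. *Kcnj2* and *Kcne3* passed the filter only through their saline libraries, and their selection used this comparison, so the count is not evidence for the set. Values below are on a CPM scale normalized by the trimmed mean of M values (TMM) within the cell type, and tests are from limma-voom with Benjamini–Hochberg adjustment over all genes tested.

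The inward rectifier gene *Kcnj2* (ENSMUSG00000041695) had 70, 57 and 51 counts in the 3 saline libraries of macrophages and 5, 8 and 0 counts in the 3 CGRP libraries. On the CPM scale these were 20.4, 17.3 and 18.6 after saline and 1.60, 3.00 and 0 after CGRP. All CGRP libraries lay far below all saline libraries, and the library without a count was also the shallowest, where 3 counts correspond to 1.498 CPM. The mean was 18.8 ± 1.56 CPM (SD, n = 3) after saline and 1.53 ± 1.501 CPM (SD, n = 3) after CGRP. *Kcnj2* fell by 4.07 on the log2 scale (log2 fold change -4.07, SE 0.60, 95% interval -5.35 to -2.79, limma-voom adjusted p = 3.8e-04), and the summed counts after CGRP were, scaled by depth, 8.92% of those after saline (exact interval 4.66% to 15.7%). With 1 library left out the log2 fold change ranged from -4.82 (without macrophage CGRP replicate 2) to -3.02 (without macrophage CGRP replicate 3), and it stayed among the 8 lowest there and in all alternatives that could test it. The fall was smaller with edgeR (-3.46) and with DESeq2 (-3.51), and both called it.

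*Kcne3* (ENSMUSG00000035165), the accessory subunit gene, had 48, 44 and 21 counts after saline and 2, 0 and 10 counts after CGRP. These corresponded to 14.0, 13.3 and 7.67 CPM after saline and to 0.642, 0 and 5.08 CPM after CGRP, with a floor of 1.11 CPM in the library without a count. The groups did not overlap, but the highest CGRP library approached the lowest saline library. The mean was 11.7 ± 3.47 CPM (SD, n = 3) after saline and 1.91 ± 2.77 CPM (SD, n = 3) after CGRP, a fall by 3.65 on the log2 scale (SE 0.74, limma-voom adjusted p = 5.17e-03). DESeq2 did not call *Kcne3* (log2 fold change -2.66, adjusted p = 0.269), whereas edgeR did (-2.85, adjusted p = 7.91e-03), and with limma-voom the log2 fold change was -2.76 without macrophage CGRP replicate 2, the library with 0 counts (adjusted p = 0.0415), and -4.91 without macrophage CGRP replicate 3, the library with 10.

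The calcium-activated channel gene *Kcnn4* (ENSMUSG00000054342) had 561, 450 and 402 counts after saline and 101, 118 and 86 counts after CGRP in macrophages. These were 163, 136 and 147 CPM after saline and 32.4, 44.2 and 43.7 CPM after CGRP, so that each CGRP library held less than each saline library by a wide margin. The mean dropped from 149 ± 13.6 CPM to 40.1 ± 6.68 CPM (SD, n = 3 each), a fall by 1.92 on the log2 scale (SE 0.17, 95% interval -2.27 to -1.56, limma-voom adjusted p = 1.97e-06), or 3.77-fold. With 1413 counts over the saline libraries, it had the most counts of the 4 genes that fell, and its summed counts after CGRP were 26.4% of those after saline (exact interval 23.2% to 29.9%).

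*Kcnk13* (ENSMUSG00000045404), a leak channel gene, had 203, 196 and 164 counts after saline, or 59.1, 59.4 and 59.9 CPM, and 107, 57 and 29 counts after CGRP, or 34.3, 21.4 and 14.7 CPM. The saline libraries were nearly alike and the CGRP libraries spread more than 2-fold, yet all 3 lay below saline. The mean was 59.5 ± 0.424 CPM after saline and 23.5 ± 9.97 CPM after CGRP (SD, n = 3 each), a fall by 1.35 on the log2 scale (SE 0.23, limma-voom adjusted p = 1.23e-03), or 2.56-fold. The groups of these 4 genes did not overlap, as for 12.3% of all genes tested in macrophages with CGRP lower.

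The other leak channel gene, *Kcnk6* (ENSMUSG00000046410), had 48, 33 and 74 counts after saline and 43, 50 and 33 counts after CGRP in macrophages, and the groups overlapped fully. The means were 17.0 ± 8.92 CPM and 16.4 ± 2.49 CPM (SD, n = 3 each; log2 fold change 0.09, 95% interval -0.56 to 0.75, limma-voom adjusted p = 0.910). *Kcnab2* (ENSMUSG00000028931), the beta subunit gene, had 149, 104 and 138 counts after saline and 93, 116 and 86 counts after CGRP. Its means were 41.8 ± 9.56 CPM and 39.0 ± 7.94 CPM (SD, n = 3 each; log2 fold change -0.11, 95% interval -0.55 to 0.34, limma-voom adjusted p = 0.839), with overlapping groups. *Kcna3* (ENSMUSG00000047959) had 2 counts in 1 saline library and 0 in all others, and *Kcnq1* (ENSMUSG00000009545) had 0 counts in all 6 macrophage libraries. A count of 0 allows at most 3 counts per library here, so low levels of both were not detectable at this depth.

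**Figure D1:**
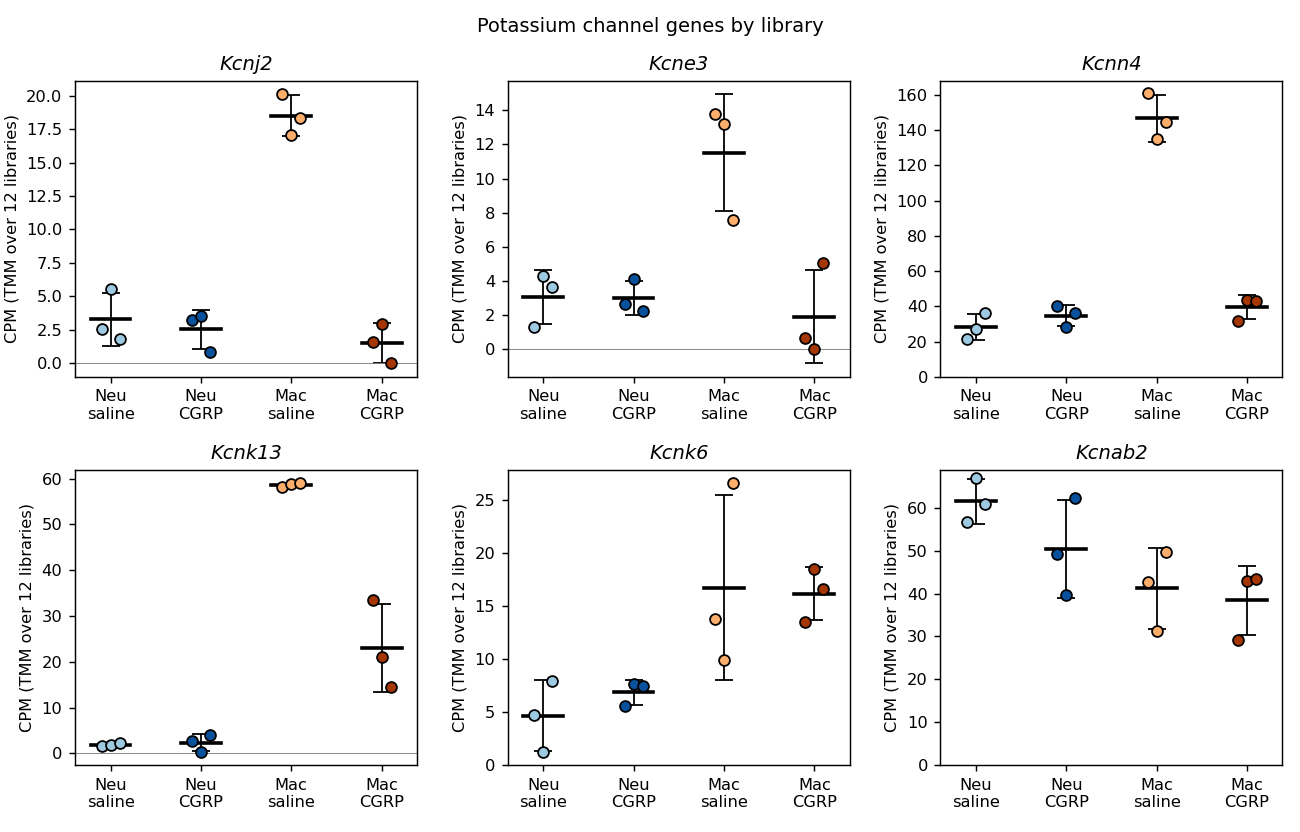
Points show TMM-normalized CPM over all 12 libraries for the 6 channel genes that passed the filter, with neutrophils (Neu) and macrophages (Mac) after saline or CGRP on the horizontal axis, the group mean as a bar and the SD as an error bar (n = 3). For Kcnj2, Kcne3, Kcnn4 and Kcnk13 the macrophage saline libraries stand above the 3 other groups, and macrophages after CGRP overlap neutrophils for Kcnj2, Kcne3 and Kcnn4 but not for Kcnk13.

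Summed levels of some marker lists of other cells were higher in all macrophage CGRP libraries than in the saline libraries, while 1 gene of these lists passed the test. The 11 neutrophil markers, of which 8 were tested and 0 called (2 at an unadjusted p under 0.05 in limma-voom, which 19.8% of all genes tested in macrophages had, and 0 called by edgeR or DESeq2), summed to 346, 379 and 332 CPM after saline and 436, 426 and 414 CPM after CGRP, led by *S100a8*. The 9 T and NK cell markers summed to 3.26, 2.30 and 4.34 CPM after saline and 7.06, 5.94 and 7.99 CPM after CGRP. Only 1 of them, *Cd4*, was tested, and it was called (2.20 ± 1.38 against 6.43 ± 1.19 CPM, SD, n = 3 each, limma-voom adjusted p = 0.0394). Of all genes tested in macrophages, 7.43% were called. *Cd4* was also called by edgeR but not by DESeq2, while *Cd3e*, *Cd3g* and *Ncr1* were at 0. The 6 dendritic cell markers, led by *Cd209a*, of which 1 was tested and 0 called (1 at an unadjusted p under 0.05 in limma-voom, and 0 called by edgeR or DESeq2), summed to 4.14 to 5.91 CPM after saline and 7.36 to 9.66 CPM after CGRP, with *Xcr1* at 0. Of the 10 macrophage markers 0 were called by limma-voom, edgeR or DESeq2, and 3 had an unadjusted p under 0.05 in limma-voom. The part of these markers in the channel results was not tested, and in bulk libraries fewer cells of a type and less RNA per cell cannot be told apart.

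**Figure D2:**
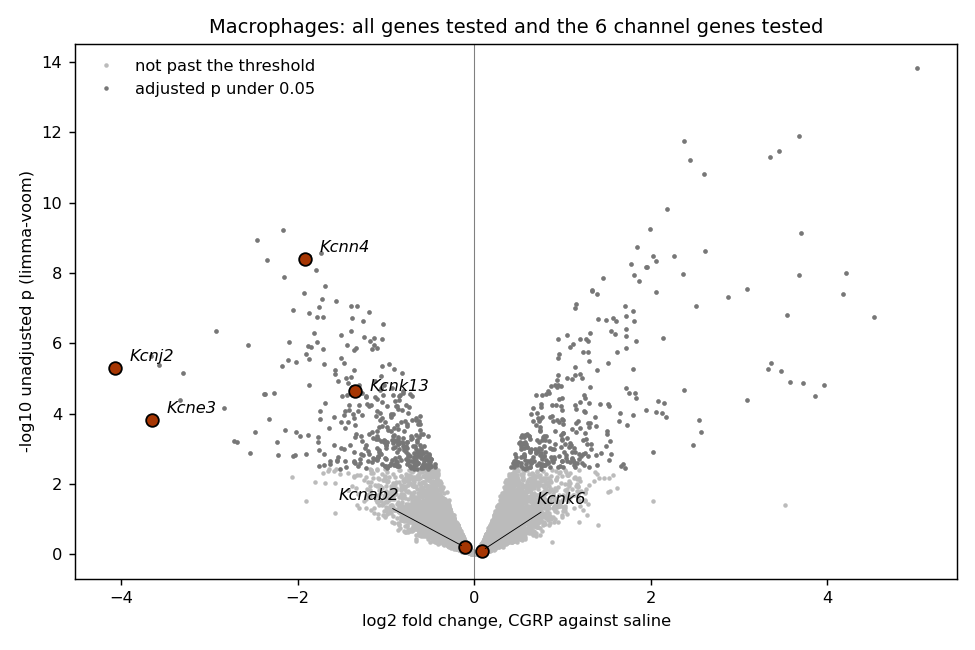
Each point is 1 of the 9393 genes tested in macrophages, with its log2 fold change (CGRP against saline) on the horizontal axis and -log10 of the unadjusted limma-voom p on the vertical axis; dark grey points have an adjusted p under 0.05 and orange points are the channel genes. Kcnj2 lies at the far left at -4.07, and Kcnk6 and Kcnab2 lie at the foot near 0.

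The sequences upstream of the 4 genes that fell are shown because all 4 were called lower after CGRP in macrophages. RefSeq promoter entries (GRCm38.p6) matched 6 of the 8 genes, and the 250 bases before each start are printed 5′ to 3′ on the strand of the gene, with capitals marking the palindrome CACGTG (E-box). *Kcnj2* lies on chromosome 11 (111066164 to 111076821, plus strand), *Kcne3* on chromosome 7 (100176502 to 100184869, plus strand), *Kcnn4* on chromosome 7 (24370263 to 24386690, plus strand) and *Kcnk13* on chromosome 12 (99964499 to 100062682, plus strand), by GENCODE M21 on GRCm38. The other genes lie on chromosome 7 (*Kcnk6*, 29221926 to 29232515, minus strand, and *Kcnq1*, 143106362 to 143427042, plus strand), chromosome 4 (*Kcnab2*, 152390742 to 152477871, minus strand) and chromosome 3 (*Kcna3*, 107036169 to 107038070, plus strand). The windows are chr11:111065914-111066163 for *Kcnj2*, chr7:24370013-24370262 for *Kcnn4*, chr12:99964249-99964498 for *Kcnk13* and chr7:100178433-100178682 for the second of 2 *Kcne3* promoters. No annotated exon lies in them, and the first *Kcne3* window, which holds exon sequence of *Kcne3* and of the antisense gene *Gm34821*, is not shown.
Kcnj2: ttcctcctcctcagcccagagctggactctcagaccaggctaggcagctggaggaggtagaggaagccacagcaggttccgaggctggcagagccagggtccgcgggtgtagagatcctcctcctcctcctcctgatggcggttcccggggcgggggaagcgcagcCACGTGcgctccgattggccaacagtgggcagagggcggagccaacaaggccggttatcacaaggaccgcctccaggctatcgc
Kcnn4: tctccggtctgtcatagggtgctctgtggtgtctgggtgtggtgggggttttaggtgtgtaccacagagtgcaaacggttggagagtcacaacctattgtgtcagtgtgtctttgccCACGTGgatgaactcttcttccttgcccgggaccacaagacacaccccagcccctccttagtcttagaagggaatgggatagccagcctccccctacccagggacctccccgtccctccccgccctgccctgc
Kcnk13: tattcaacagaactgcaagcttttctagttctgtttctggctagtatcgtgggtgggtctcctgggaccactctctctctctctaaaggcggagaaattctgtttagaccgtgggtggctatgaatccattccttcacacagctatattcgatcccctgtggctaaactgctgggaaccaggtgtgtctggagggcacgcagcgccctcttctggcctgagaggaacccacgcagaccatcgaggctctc
Kcne3: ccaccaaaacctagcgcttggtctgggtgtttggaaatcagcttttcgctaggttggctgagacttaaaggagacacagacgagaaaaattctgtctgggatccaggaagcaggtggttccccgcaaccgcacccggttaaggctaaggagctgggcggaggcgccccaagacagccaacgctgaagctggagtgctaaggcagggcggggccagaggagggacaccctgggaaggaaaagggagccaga

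The cAMP response element is the DNA site of CREB, a factor activated downstream of receptors that, like that of CGRP, raise cAMP. Neither the full element TGACGTCA nor its core TGACG was found, on either strand, in these 4 windows or in the first *Kcne3* window. Of all 32851 RefSeq promoter windows of that length, 1.55% held the full element and 17.8% the core, which is contained in the full element. The E-box, which was chosen after the sequences had been read, occurred 84 bases before the start of *Kcnj2* and 133 bases before that of *Kcnn4*, and in 6.02% of all windows. The letters GAGGAAGT, a core of the myeloid factor PU.1, were in none of the windows of the 6 genes and in 2.44% of all windows. In contrast, 1 of 3 windows of *Kcnab2* held the reverse complement of the core, 175 and 164 bases before the RefSeq start. That window lies within the annotated gene and holds annotated exon sequence of *Kcnab2*. Absence of letters from a window says only that they are not in that window.

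In neutrophils, none of the channel genes passed the test after CGRP. Of the 8 genes, 5 passed the filter, and 0 of these were called, where 2.53% of the 9819 genes tested in neutrophils were called (1.51% higher and 1.02% lower after CGRP). Of those called, 59.7% were higher after CGRP, against 70.1% where library totals replaced TMM. At an unadjusted p under 0.05 in limma-voom, 1 of the 5 passed, *Kcnab2*, against 12.8% of all genes tested. edgeR called 0 of the 5 and DESeq2 0 of the 2 for which it gave an adjusted p, *Kcnn4* and *Kcnab2*. In each of the 5 the saline and CGRP libraries overlapped, whereas the groups did not overlap for 17.8% of all genes tested (8.83% with CGRP lower).

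*Kcnn4* had 67, 89 and 100 counts after saline and 123, 96 and 82 after CGRP in neutrophils. Its means were 27.7 ± 7.43 CPM and 34.4 ± 5.66 CPM (SD, n = 3 each; log2 fold change 0.33, 95% interval -0.05 to 0.72, limma-voom adjusted p = 0.483), an estimate that did not pass the test and ranged from 0.15 without neutrophil saline replicate 1 to 0.51 without neutrophil saline replicate 3. *Kcnj2* had 8, 18 and 5 counts after saline and 10, 12 and 2 after CGRP (log2 fold change -0.30, 95% interval -1.38 to 0.78, limma-voom adjusted p = 0.880). These few counts spread several-fold within each group, and the interval is wide.

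*Kcne3* had 4, 14 and 10 counts after saline and 8, 14 and 5 after CGRP in neutrophils (log2 fold change 0.14, 95% interval -0.85 to 1.13, limma-voom adjusted p = 0.948). *Kcnk6* had 15, 4 and 22 counts after saline and 17, 26 and 17 after CGRP (log2 fold change 0.94, 95% interval -0.01 to 1.88, limma-voom adjusted p = 0.392). With 1 library left out it ranged from 0.17 without neutrophil saline replicate 2, which had 4 counts, to 1.45 without neutrophil saline replicate 3, and it did not pass the threshold in any of these fits (limma-voom adjusted p from 0.191 to 0.932). *Kcnab2* had 179, 218 and 169 counts after saline and 151, 135 and 142 after CGRP, or 60.4 ± 4.80 and 50.01 ± 11.5 CPM (SD, n = 3 each; log2 fold change -0.33, 95% interval -0.63 to -0.03, limma-voom adjusted p = 0.326). *Kcnk13*, with 5, 6 and 6 counts after saline and 8, 1 and 9 after CGRP, did not pass the filter. *Kcna3* was at 0 in all 6 libraries and *Kcnq1* had at most 1 count in any.

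**Figure D3:**
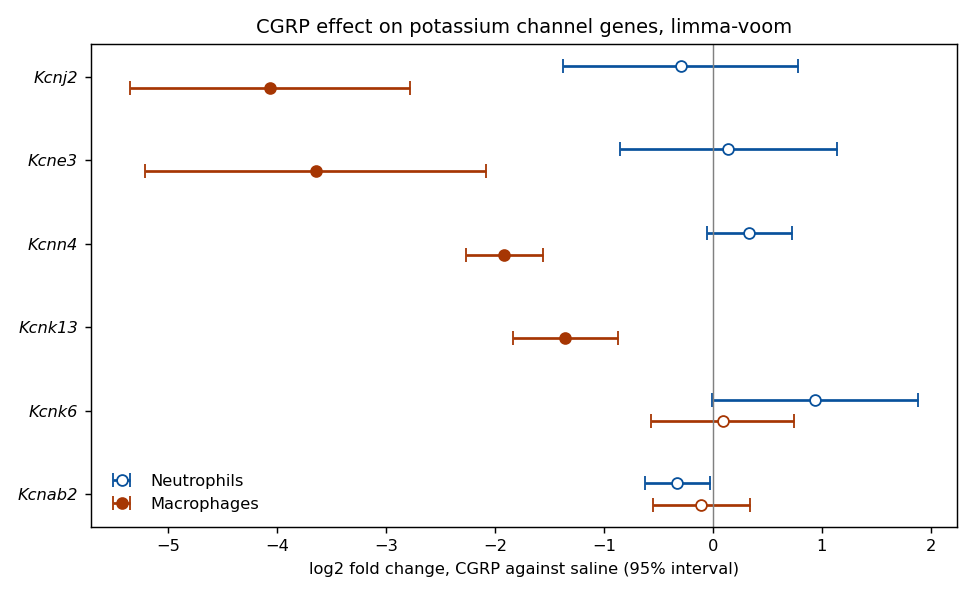
Log2 fold changes after CGRP against saline and their 95% intervals (horizontal axis) are plotted for each channel gene in neutrophils (blue) and macrophages (orange), with filled points for an adjusted p under 0.05 from limma-voom; Kcnk13 was not tested in neutrophils. In macrophages 4 genes lie between -4.07 and -1.35, whereas the 5 neutrophil estimates lie between -0.33 and 0.94.

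Whether the CGRP effect differed between the cell types was examined with an interaction term fitted to all 12 libraries (macrophage effect minus neutrophil effect). It was below 0 for *Kcnj2* (-3.61, SE 0.85, limma-voom adjusted p = 0.0202), *Kcne3* (-3.93, SE 0.95, limma-voom adjusted p = 0.0244) and *Kcnn4* (-2.24, SE 0.26, limma-voom adjusted p = 1.19e-05). Of the 10694 genes in this fit, 2.36% passed the threshold, 1.15% with the difference below 0 and 1.21% above it, and of those called 51.2% were above 0, against 36.4% without TMM. This contrast contains the macrophage comparison by which the genes were known. *Kcnk13* gave -1.0 (95% interval -2.57 to 0.57, limma-voom adjusted p = 0.650), so a difference between the cell types was not detectable for it, with 35 counts in all 6 neutrophil libraries together. Its value was -1.503 with DESeq2 and ranged from -2.09 without neutrophil CGRP replicate 2 to -0.48 without neutrophil CGRP replicate 3. *Kcnk6* gave -0.84 (adjusted p = 0.640 by limma-voom), from -1.37 without neutrophil saline replicate 3 to -0.076 without neutrophil saline replicate 2. *Kcnab2* gave 0.22 (adjusted p = 0.804 by limma-voom), from 0.032 to 0.44 with 1 library left out, and none of these 3 genes passed with any library left out.

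The *Kcnn4* interaction passed with each library left out (-2.45 to -2.05). That of *Kcnj2* ranged from -4.33 without macrophage CGRP replicate 2 to -2.71 without macrophage CGRP replicate 3, and that of *Kcne3* from -5.01 without macrophage CGRP replicate 3 to -2.84 without macrophage CGRP replicate 2. For *Kcnj2* the adjusted p by limma-voom rose to 0.0592 without neutrophil saline replicate 1, to 0.0571 without neutrophil saline replicate 3, to 0.0842 and 0.0927 without neutrophil CGRP replicates 1 and 2, and to 0.0569 without macrophage CGRP replicate 3. For *Kcne3* it rose to 0.0726 without neutrophil saline replicate 1, to 0.0503 and 0.0938 without neutrophil CGRP replicates 1 and 2, to 0.0593 without macrophage saline replicate 1 and to 0.125 without macrophage CGRP replicate 2. With edgeR the *Kcne3* interaction was smaller, -2.86 (edgeR adjusted p = 0.0837), as it was with DESeq2, which called it (-2.79, DESeq2 adjusted p = 0.0478). With no filter on low counts it stayed about as large by limma-voom, -3.88, and was not called (adjusted p = 0.0514).

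The resting level of each gene was compared between neutrophils and macrophages after saline, on CPM normalized over all 12 libraries. All 6 genes tested differed, 5 being higher in macrophages and 1, *Kcnab2*, higher in neutrophils, in a comparison in which 67.9% of all genes tested differed (32.5% higher in macrophages, 35.4% higher in neutrophils; without TMM 3441 genes were higher in neutrophils and 3720 in macrophages, so that balance depends on the scaling). *Kcnk13* did not pass the filter within neutrophils and was tested here only through the macrophage libraries, and the macrophage saline libraries are those of the comparison by which the set was known, so the count is a description. Cell type, culture with M-CSF and medium cannot be told apart in this design. *Kcnk13* held 58.6 ± 0.371 CPM in macrophages and 1.86 ± 0.291 CPM in neutrophils (SD, n = 3 each), 29.4-fold lower in neutrophils (log2 difference -4.88, SE 0.51, limma-voom adjusted p = 1.47e-08). *Kcnn4* held 147 ± 13.2 against 28.2 ± 7.46 CPM (-2.42, limma-voom adjusted p = 2.91e-11), and *Kcnj2* 18.5 ± 1.51 against 3.29 ± 1.97 CPM (-2.55, limma-voom adjusted p = 1.69e-05). The groups did not overlap for any of the 6 genes, as for 70.5% of all genes tested (33.9% with macrophages higher).

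*Kcne3* held 11.5 ± 3.43 CPM in macrophages and 3.05 ± 1.59 CPM in neutrophils (log2 difference -2.01, limma-voom adjusted p = 1.15e-03), and *Kcnk6* held 16.8 ± 8.75 and 4.63 ± 3.35 CPM (-2.05, limma-voom adjusted p = 5.27e-04). Without neutrophil saline replicate 2, which had 4 counts of *Kcnk6*, its difference was -1.28 (limma-voom adjusted p = 9.53e-03). *Kcnab2* held 41.2 ± 9.33 CPM in macrophages and 61.5 ± 5.18 CPM in neutrophils (0.61, limma-voom adjusted p = 5.16e-03). Its call rested on macrophage saline replicate 2, the lowest of the 3, since without it the difference was 0.42 with an adjusted p of 0.0535 by limma-voom.

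Across the 4 groups, *Kcnn4* was ordered as macrophages after saline, macrophages after CGRP (39.5 ± 6.80 CPM), neutrophils after CGRP (34.7 ± 6.01 CPM) and neutrophils after saline, and its last 3 groups overlapped with their neighbours. *Kcnj2* in macrophages after CGRP, at 1.51 ± 1.48 CPM, overlapped the 2 neutrophil groups, which held 3.29 ± 1.97 CPM after saline and 2.55 ± 1.45 CPM after CGRP. *Kcne3* likewise ranged between 0 and 5.03 CPM in macrophages after CGRP and between 1.26 and 4.30 CPM in neutrophils after saline. In contrast, *Kcnk13* in macrophages after CGRP, at 23.1 ± 9.63 CPM, remained above all neutrophil libraries, the highest of which held 3.95 CPM.

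**Figure D4:**
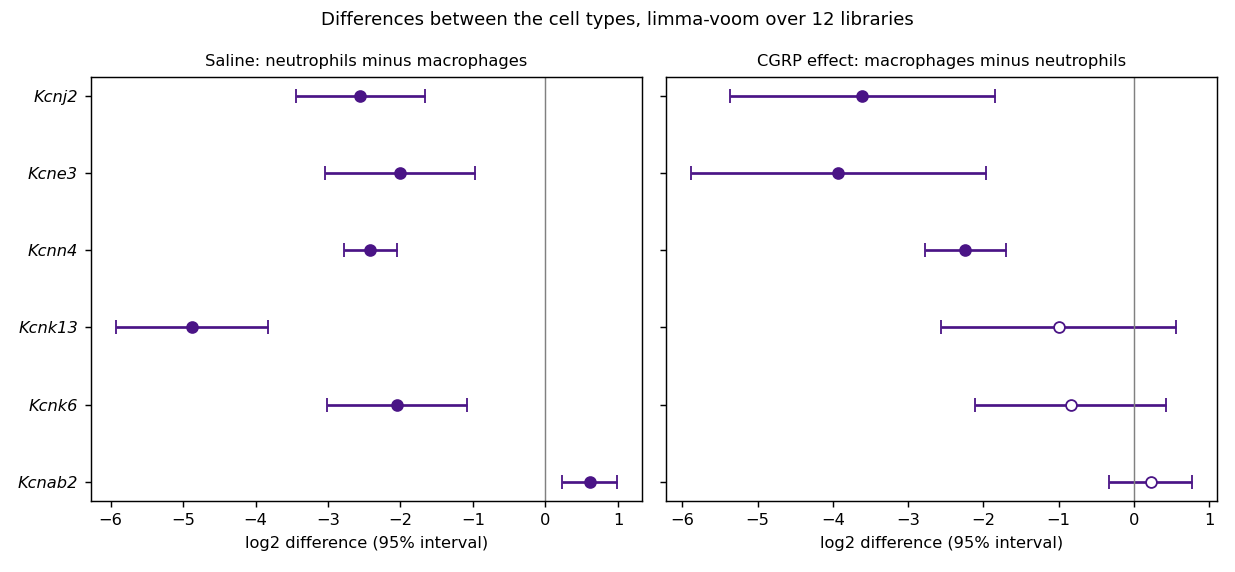
The left panel shows the log2 difference in level between neutrophils and macrophages after saline, and the right panel the log2 difference between the CGRP effects in the 2 cell types, each with its 95% interval from 1 limma-voom fit over 12 libraries and filled points for an adjusted p under 0.05. On the left 5 genes lie below 0 and Kcnab2 at 0.61 above it, and on the right Kcnj2, Kcne3 and Kcnn4 lie below 0 with intervals that exclude it.

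Of 94 genes whose symbol begins with Kcn, 6 were tested in any comparison, and these 6 are all in the set described here. Among the 86 others, 50 had 0 counts in all 12 libraries, 24 had 1 to 9 counts over the 12 libraries together, and 12 had at least 10. The most counted in neutrophils, named after their values were seen, were *Kcnk12*, a halothane-inhibited leak channel gene (11, 5 and 6 counts after saline, 7, 16 and 6 after CGRP), and *Kcnip3*, for a calcium-binding Kv channel partner (9, 12 and 6 after saline, 6, 6 and 3 after CGRP). In macrophages it was *Kcnj10*, for the inward rectifier Kir4.1 (6, 11 and 4 counts after saline, 2, 4 and 4 after CGRP). None reached the filter, so no test was made.

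Genes that act with the channels are given as counts beside the shares of all genes called, 2.53% in neutrophils and 7.43% in macrophages, and the shares at an unadjusted p under 0.05, 12.8% and 19.8%. Of 15 genes of the sodium–potassium pump, which restores the gradient that the channels use, 6 were tested in neutrophils and 5 in macrophages, with median log2 fold changes of 0.37 and 0.36, against 0.00080 and 0.0047 over all genes tested. In each cell type 1 pump gene was called, and 5 of 6 in neutrophils and 3 of 5 in macrophages had an unadjusted p under 0.05 in limma-voom. In neutrophils *Fxyd5*, a pump regulator, rose from 1495, 1559 and 1413 CPM to 2170, 1916 and 1902 CPM (log2 fold change 0.42, SE 0.08, limma-voom adjusted p = 3.36e-03). In macrophages *Atp1b3*, a pump beta subunit gene, rose from 305, 328 and 290 CPM to 428, 431 and 466 CPM (0.52, SE 0.12, limma-voom adjusted p = 0.0150).

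Among 24 genes for calcium, proton and volume-regulated conductances, 18 were tested in each cell type (medians 0.15 in neutrophils and 0.14 in macrophages), limma-voom called 1 in each, and 8 and 5 had an unadjusted p under 0.05, which 12.8% and 19.8% of all genes tested had. In macrophages edgeR and DESeq2 each called 2, with 3 at an unadjusted p under 0.05, and in neutrophils each called 1, with 8 by edgeR and 4 by DESeq2 at an unadjusted p under 0.05. The proton channel gene *Hvcn1* fell in neutrophils from 193, 202 and 193 CPM to 135, 111 and 135 CPM (log2 fold change -0.64, SE 0.10, limma-voom adjusted p = 3.57e-04). *Lrrc8d*, a subunit of the volume-regulated anion channel, rose in macrophages from 14.8, 7.58 and 22.3 CPM to 23.1, 35.6 and 43.7 CPM (1.26, SE 0.32, limma-voom adjusted p = 0.0250), with groups close to each other at their edges. Of 13 cation–chloride cotransport genes, 5 were tested in each cell type (medians -0.09 and -0.29), with 1 and 0 at an unadjusted p under 0.05 in limma-voom, and the regulatory kinase gene *Stk39* fell in neutrophils from 48.3, 39.3 and 46.0 CPM to 28.0, 20.8 and 29.8 CPM (-0.79, SE 0.16, limma-voom adjusted p = 7.03e-03). All 5 genes of the potassium-sensing NLRP3 inflammasome were tested in both cell types (medians -0.17 and -0.36), with 1 and 3 at an unadjusted p under 0.05 in limma-voom, and *Casp1*, its protease, fell in macrophages from 128, 153 and 92.5 CPM to 90.8, 75.7 and 65.0 CPM (-0.66, SE 0.19, limma-voom adjusted p = 0.0397). Of these 6 genes, the effect of *Lrrc8d* differed between the cell types (interaction 1.55, limma-voom adjusted p = 0.0250).

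The 3 genes whose log2 CPM was most alike that of *Kcnj2* over the 12 libraries were *Dot1l*, for a histone H3 methyltransferase (Pearson r = 0.964), *Ccl3*, for a chemokine (0.900), and *Exosc1*, for an RNA exosome subunit (0.894). Their macrophage log2 fold changes were -1.55, -1.58 and -0.91. For *Kcnk6*, the gene with the largest absolute estimate in neutrophils, they were *Syvn1* (0.938), *Wdr59* (0.927) and *Ssfa2* (0.926). All points share the difference between the cell types and the treatment, and these values are a description across 12 libraries.

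Overlapping genes and shared sequence bear on some of the counts, and the strand setting of the counting is not given in the sources used here. The antisense gene *Gm34821* overlaps *Kcne3* and held at most 1 count in any library, and *Nphp4*, which lies opposite *Kcnab2* without shared exons, held at most 7. *Gm16334* overlaps exons of *Kcnab2* on the same strand, so strand cannot separate their reads, and it held 0 counts in all 12 libraries. The antisense RNA *Kcnq1ot1* overlaps exons of *Kcnq1* and held 7 to 38 counts per library, so reads of the 2 genes cannot be told apart without strand. Over the last 500 bases of the longest transcript, 6.81% of the 31-base words of *Kcnk6* and 2.98% of those of *Kcnn4* also occur in other genes' transcripts, and 0% of those of the 6 other genes.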

How the data were processed

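With nfCore/RNAseq the authors collapsed PCR duplicates by their molecular identifiers, aligned to GRCm38 with STAR and deposited raw counts per gene from featureCounts, in 1 table per cell type (52636 genes each). The annotation release, strand setting and any low-count filter are not given in the sources used here. No 2 libraries were identical, and the sources do not say whether libraries of a group came from separate mice, so p-values measure the spread between these libraries.

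After filterByExpr of edgeR (4.0.16) and TMM scaling, genes were tested by limma-voom (3.58.1, R 4.3.3; two-sided, Benjamini–Hochberg over all genes tested, threshold 0.05), on 6 libraries within a cell type and on 12 libraries for resting levels and interactions. Marker sums are CPM of the library total without TMM. Intervals are 95%, and those of count ratios are exact. Other settings tried were DESeq2 (1.42.0), the quasi-likelihood test of edgeR, DESeq2 size factors, library totals without TMM, no filter, at least 10 counts in every library, a replicate block, voomWithQualityWeights, 1 fit over all 12 libraries and leaving out each library. The pipeline was tested on simulated data. Gene models came from GENCODE M21 (52489 identifiers found). Of Kcn symbols, 5 host or antisense names were left out.

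The channel genes, the lists and the tests were chosen with earlier results of these data known. Named genes were the 8 channel genes in both cell types, any other Kcn gene past the threshold, list members past the threshold (at most 5 per list and cell type), the marker with the most counts in each list, overlapping genes, and the 3 genes most correlated with the channel gene of largest absolute change in each cell type. Beyond that rule, *Kcnk12*, *Kcnip3* and *Kcnj10* were named after their values were seen. The platelet list, led by *Pf4*, summed to 133 to 200 CPM in neutrophils and 626 to 941 CPM in macrophages, with 0 genes called. The results of 2 further gene lists are not reported here.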

Additional observations from a re-analysis of the deposited data

Results flagged for a closer look

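The CGRP effect on 3 of the 6 channel genes tested differed between macrophages and neutrophils by a test of that difference (macrophage minus neutrophil, limma-voom interaction). Of all 10694 genes in that fit, 2.36% passed the threshold, 1.15% with the difference below 0. This difference contains the macrophage comparison by which the genes were known, and *Kcnj2* and *Kcne3* passed the filter within macrophages only through their saline libraries, so the values are a description. For *Kcnj2* it was -3.61 on the log2 scale (adjusted p = 0.0202), with the gene lower in all 3 macrophage CGRP libraries than in any macrophage saline library and with overlapping neutrophil groups. The *Kcne3* difference was -3.93 (adjusted p = 0.0244), and that of *Kcnn4* was -2.24 (adjusted p = 1.19e-05), with the same separation in macrophages and overlap in neutrophils. Of all genes tested in macrophages, 12.3% had such a separation with CGRP lower. Of those tested in neutrophils, 17.8% had groups that did not overlap, in either direction. With 1 library left out, the adjusted p ranged from 7.83e-03 to 0.0927 for *Kcnj2* (past 0.05 without neutrophil saline replicates 1 or 3, neutrophil CGRP replicates 1 or 2, or macrophage CGRP replicate 3), from 7.9e-03 to 0.125 for *Kcne3* (past 0.05 without neutrophil saline replicate 1, neutrophil CGRP replicates 1 or 2, macrophage saline replicate 1 or macrophage CGRP replicate 2), and from 1.33e-05 to 1.59e-04 for *Kcnn4*. The *Kcne3* difference was also not called by edgeR (-2.86, adjusted p = 0.0837) or by limma-voom with no filter on low counts (-3.88, adjusted p = 0.0514). DESeq2 called it with a smaller estimate than the main fit (-2.79, DESeq2 adjusted p = 0.0478).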

How the results depend on the processing

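In macrophages *Kcnn4* and *Kcnk13* were called under all 9 alternatives and with each library left out, *Kcnj2* under all 8 that could test it and *Kcne3* under 7 of 8, since DESeq2 gave an adjusted p of 0.269. *Kcnj2* and *Kcne3* could not be tested with at least 10 counts required in every library. Estimates near 0 changed sign: *Kcnk6* in macrophages was 0.09, but -0.034 with edgeR and -0.041 with DESeq2, and *Kcne3* in neutrophils was 0.14, but -0.0022 with DESeq2; none of these passed the threshold, and the cause was not tested. With 1 library left out, estimates in neutrophils ranged from -0.61 to 0.16 for *Kcnj2*, from -0.38 to 0.48 for *Kcne3* and from -0.47 to -0.16 for *Kcnab2*, and in macrophages from -0.22 to 0.45 for *Kcnk6* and from -0.30 to 0.10 for *Kcnab2*.

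The number of all genes called in neutrophils was 248, and 137 in 1 fit over all 12 libraries; in macrophages 698, 1050 in 1 fit and 1406 with voomWithQualityWeights; for the interaction 252, 520 with voomWithQualityWeights and 406 with the replicate block. With 1 library left out these counts ranged from 138 to 234 in neutrophils (138 without saline replicate 1 or 2, 153 without CGRP replicate 2), from 347 to 765 in macrophages (347 without saline replicate 1, 348 and 439 without CGRP replicates 2 and 3), from 149 to 328 for the interaction (149 without macrophage saline replicate 1) and from 6889 to 7559 for resting levels. Where an arm had 2 libraries, the spread was pooled over the fit.

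Libraries with the same replicate number did not deviate together (r = 0.042, -0.013 and 0.137 in neutrophils, 0.059, -0.179 and 0.273 in macrophages), so the numbers were not taken as pairs. The replicate block called 289 genes in neutrophils, 1007 in macrophages and 7434 for resting levels, and ended no call of a channel gene. Depth limits *Kcna3* and *Kcnq1* in both cell types and *Kcnk13* in neutrophils, each with at most 9 counts in a library.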
